A study of Mus musculus with 12 samples.

Results

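MHC class I molecules display peptides from inside the cell to CD8+ T cells, and the 10 genes described here encode the parts that make and load them: the heavy chains H2-K1 and H2-D1, their light chain B2m, the peptide transporter Tap1 and Tap2, the loading chaperone tapasin (Tapbp), the immunoproteasome catalytic subunits Psmb8, Psmb9 and Psmb10, and the transactivator Nlrc5. They were taken by gene symbol from a table of 14098 genes, and all 10 were found and passed the filter on low values. The cells were bone marrow-derived macrophages (BMDM), grown out of marrow of male and female C57Bl/6 mice aged 8 to 10 weeks and embedded in a collagen-hyaluronic acid hydrogel. WT cells and cells of germline Camkk2-/- mice (KO; Camkk2 encodes a calcium/calmodulin-activated kinase) were kept in the soft gel, in the soft gel with the cytokine IL-4, or in a gel stiffened by UV crosslinking 24 h after embedding, which gives 6 groups of 2 libraries: WT soft, WT soft+IL-4, WT stiff, KO soft, KO soft+IL-4 and KO stiff. By the paper's methods the stiff gel also held more collagen than the soft gel, and only the stiff gel received a photoinitiator and UV light. The paper reports no effect of UV or of the collagen amount on surface markers. Their part in the RNA differences between stiff and soft gels cannot be told apart from that of stiffness. After 48 h the cells were freed with collagenase and their poly-A RNA was sequenced. The labels call the 2 libraries of a group biological replicates without saying whether they came from separate mice or gels, so the p-values measure the spread between these libraries only.

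As background, proteasomes cut cytosolic proteins into peptides, and in immune cells the catalytic subunits Psmb5, Psmb6 and Psmb7 can be replaced by Psmb8, Psmb9 and Psmb10, which changes the peptides made. The TAP transporter, a dimer of Tap1 and Tap2, pumps these peptides into the endoplasmic reticulum, where tapasin helps to fit them onto the heavy chain and B2m. The genes are classic targets of interferons, through factors such as Irf1 and Irf9, while Nlrc5 acts on a promoter module of class I genes in which an X2 box (bound by CREB/ATF factors) lies upstream of a Y box (bound by NF-Y).

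These 2 boxes of the module were read from the promoters, because Nlrc5 acts on it in class I genes. No other part of the module was searched, and the 2 boxes alone do not mark a gene as an Nlrc5 target. Promoter windows of 300 bases (250 before the start site and 50 from it on; RefSeq, GRCm38.p6) were given for 8 of the 10 genes, and Tap2 and Nlrc5 had none. In H2-K1, H2-D1 and B2m the X2 core TGACG was followed by ATTGG, the Y box read on the other strand as CCAAT, with the first bases of both 25 bases apart. These are the 3 stretches of 30 bases, 5′ to 3′ on the strand of the gene, with both boxes in capitals.
H2-K1, chr17:34000359-34000388, minus strand: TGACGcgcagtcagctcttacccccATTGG
H2-D1, chr17:35262993-35263022, plus strand: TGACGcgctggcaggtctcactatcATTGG
B2m, chr2:122147609-122147638, plus strand: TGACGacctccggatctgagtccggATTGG
Of 32851 promoter windows, 31 (0.0944%) held this spacing on either strand, and 3 of the 8 member windows did. Windows of genes outside the class I region were among the 31. The spacing was chosen after the members' windows had been seen, so its share is a description and not a test. Single boxes were common: TGACG lay in 20.8% of all windows and in 5 member windows, and CCAAT in 37.4% and in 6.

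The stretch before the start site of B2m and of H2-K1 is shown whole, because both genes also carry a motif of inflammatory signalling beside the module. H2-D1 carries one too, but its stretch lies in annotated exons (GENCODE vM21) and is not shown. By the positions below, its RefSeq start site and its 30 bases above lie inside the H2-D1 gene. Capitals mark the matches to the motifs reported here, each searched on both strands: the interferon element (GAAA, any 2 bases, GAAA), the STAT6 site (TTC, any 4 bases, GAA), the NF-kB site (GGG, any 2 bases, TTCC), TGACG and CCAAT. No match overlapped another in the stretches shown.
B2m, chr2:122147437-122147685, plus strand: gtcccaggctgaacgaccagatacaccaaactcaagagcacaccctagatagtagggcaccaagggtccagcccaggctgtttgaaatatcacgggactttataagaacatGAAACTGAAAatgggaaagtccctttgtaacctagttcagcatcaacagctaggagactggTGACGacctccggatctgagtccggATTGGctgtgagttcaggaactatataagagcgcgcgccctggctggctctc
H2-K1, chr17:34000348-34000597, minus strand: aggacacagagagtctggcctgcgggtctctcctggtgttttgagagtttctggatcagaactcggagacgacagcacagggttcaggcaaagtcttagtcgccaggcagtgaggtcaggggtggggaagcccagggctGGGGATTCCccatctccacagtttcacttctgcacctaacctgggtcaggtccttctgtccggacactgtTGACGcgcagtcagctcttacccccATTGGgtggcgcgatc
B2m held the only match to this exact string for the interferon element among the 8 member windows (3.44% of all windows held one). Interferon sites that depart from the string were not searched for. H2-K1 and H2-D1 held the NF-kB site GGGGATTCC (5.82% of all windows held an NF-kB match). Psmb10 held the only STAT6 match among the 8 member windows.
Psmb10, chr8:105938440-105938469, minus strand: gtaacttcagTTCCAGGGAAtctgatgccc
STAT6 is the factor that IL-4 activates, and 6.95% of all windows held such a match. Whether this match bears on the level of Psmb10 with IL-4 was not tested. A match says only that these letters lie in the window, and the lack of a match does not show that a window holds no such site.

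Of the members, 7 lie on chromosome 17 of GRCm38 (GENCODE vM21) in the MHC region. Tapbp lies at chr17:33915899-33929292 and H2-K1 at chr17:33996017-34000347. Psmb9 (chr17:34181987-34187764, minus strand) and Tap1 (chr17:34187553-34197225, plus strand) overlap head to head, and Psmb8 (chr17:34197721-34201454) and Tap2 (chr17:34203527-34216321) follow. H2-D1 lies at chr17:35262730-35267499. B2m lies on chromosome 2 (chr2:122147686-122153083), and Psmb10 (chr8:105935735-105938444) and Nlrc5 (chr8:94434356-94527272) on chromosome 8.

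Values are TPM, which divide the reads of a gene by its length and scale each library to 1000000. TPM keeps no read counts, so the depth of each library and the counting error of a value are unknown. The deleted gene, Camkk2, was listed at 44.2 and 11.7 TPM in WT soft, between 23.3 and 30.5 TPM in the other WT libraries, and at 8.54 to 11.5 TPM in 4 KO libraries, but at 46.6 TPM in the library labelled KO soft 1 and 37.7 TPM in that labelled KO stiff 1. It thus went against the genotype label of the libraries labelled WT soft 2, KO soft 1 and KO stiff 1. Ifi44, an interferon-stimulated gene picked after its values were seen, also differed between replicates of these groups, at 7.78 and 72.7 TPM in WT soft, 5.83 and 77.5 TPM in KO soft and 6.41 and 62.1 TPM in KO stiff. No library was moved to another group, so WT soft, KO soft and KO stiff each hold 1 library whose Camkk2 level goes against the genotype label. Over all genes tested, the library labelled WT stiff 1 stood apart: its median absolute log2 difference from any other library was at least 0.292, against 0.110 to 0.169 between replicates of the groups other than WT stiff. The library labelled WT stiff 2 was closest to WT soft+IL-4 2, at 0.0774, and its distance to WT stiff 1 was 0.317. Results of the members on the WT stiff group are therefore also given for each of its libraries. The 8 macrophage markers were all detected and summed to 45980 to 57980 TPM in the soft and KO stiff libraries and to 23570 to 25560 TPM in the IL-4 and WT stiff libraries, with Lyz2 the most abundant. Of these markers 7 were called lower with IL-4 over both genotypes, and their part in the results below was not tested. In bulk RNA, fewer cells of a type and less RNA per cell cannot be told apart. Markers of other cells were low. Summed over their lists, dendritic cell markers reached 24.2 TPM (in WT stiff 1, mostly Ccr7), neutrophil markers 26.2 TPM, B cell markers 3.38 TPM, mast cell or basophil markers 2.68 TPM, T or NK cell markers 1.61 TPM, fibroblast markers 0.689 TPM and erythroid markers 0.466 TPM. The T cell marker Cd3d was at 0 in 7 libraries.

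BMDM carried class I RNA at very high levels in every group. Summed, the 10 genes took between 1.94% and 2.03% of the RNA of 11 libraries and 1.46% of WT stiff 1. By median TPM over the 12 libraries H2-D1 was the 10th and B2m the 11th most abundant of the 14098 genes, at 7739 and 7169 TPM, and their ranges overlapped (6105 to 8642 and 4795 to 8329 TPM). H2-K1 followed as the 36th, at 3100 TPM with a range of 2853 to 3314 TPM that touched no other member. Next came Tapbp (median 473 TPM), Psmb8 (328.5 TPM), Psmb10 (266 TPM) and Psmb9 (162 TPM), whose ranges overlapped from each to the next. Tap2 (86.9 TPM) and Tap1 (61.45 TPM) overlapped as well, and Nlrc5 was far below the rest at 11.1 TPM. Heavy chains are close copies of each other and of other class I genes, and how shared reads were divided is not given in the sources used here, so the levels of H2-K1 and H2-D1 are uncertain to that extent.

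**Figure D1:**
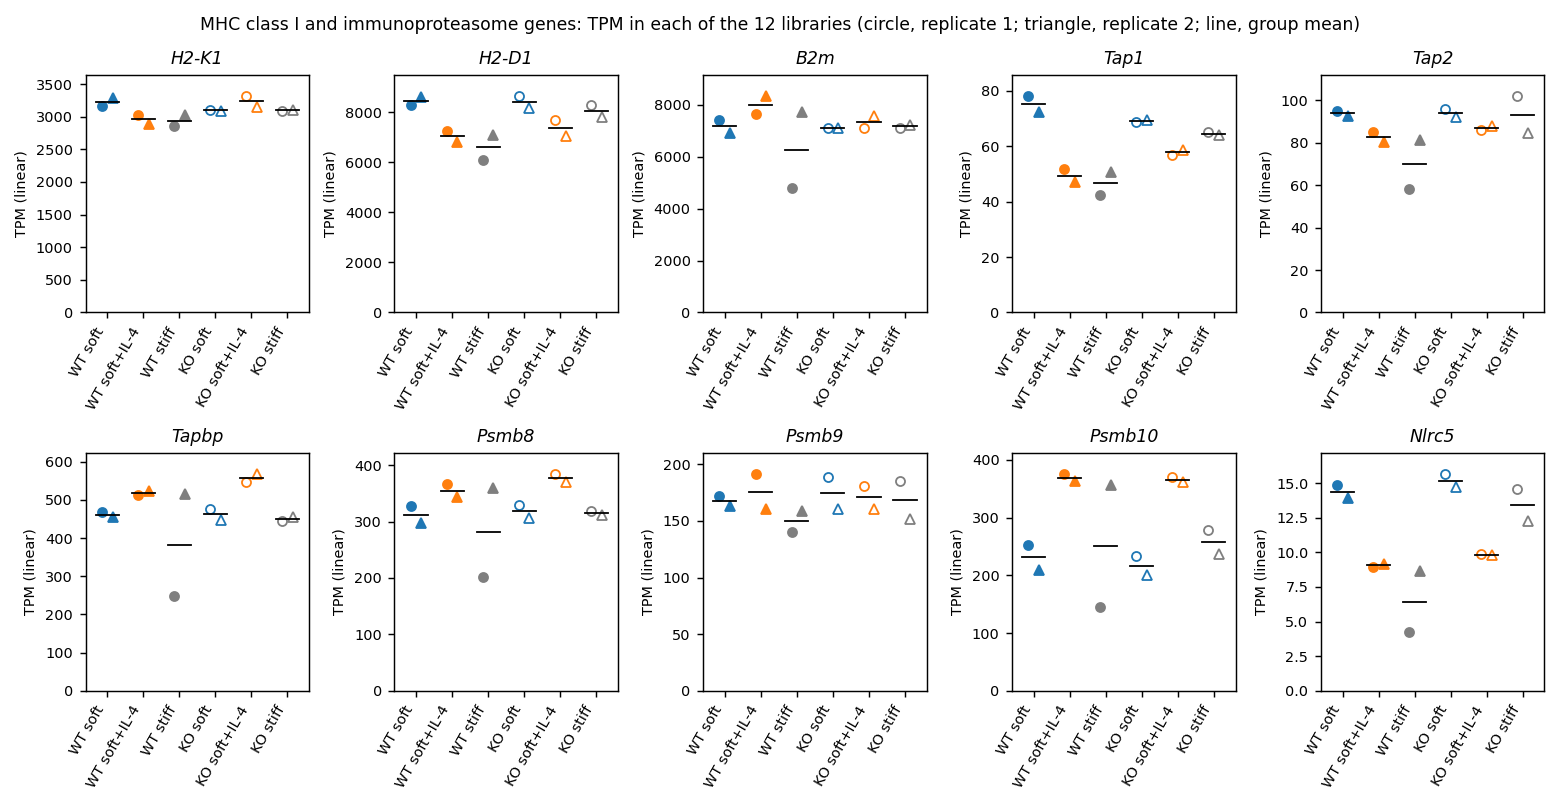
Level of each of the 10 genes in TPM (linear axis from 0) in the 6 groups; filled symbols are WT and open symbols KO, circles are replicate 1 and triangles replicate 2, and each line is the mean of 2 libraries. Tap1 and Nlrc5 were lower and Psmb10 was higher in all 4 IL-4 libraries than in all 4 soft libraries, and WT stiff 1 was the lowest library for every gene.

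The members differed in how much they varied. The highest over the lowest TPM was 1.16-fold for H2-K1, 1.37-fold for Psmb9 and 1.42-fold for H2-D1, and it reached 2.29-fold for Tapbp, 2.59-fold for Psmb10 and 3.71-fold for Nlrc5. For all 10 genes the lowest library was WT stiff 1. Without it, Psmb10 (1.87-fold), Nlrc5 (1.80-fold) and Tap1 (1.66-fold) still varied most and the other 7 genes stayed between 1.15-fold and 1.29-fold. The transactivator, one transporter chain and one catalytic subunit thus carried most of the variation, while without WT stiff 1 the heavy and light chains stayed within 1.27-fold.

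The first question was what IL-4, the classical inducer of alternative macrophage activation, did to the pathway in the soft gel. Tap1, Tap2, Nlrc5 and H2-D1 had lower values in all 4 IL-4 libraries than in all 4 soft libraries. Tapbp, Psmb8 and Psmb10 had higher values in all 4 IL-4 libraries. Such a separation, in either direction, was seen for 36.9% of all genes tested. Over both genotypes only Tap1 and Nlrc5 were called among the members, beside 22.9% of all genes. Each value below is a log2 fold change of group means on the log2(TPM + 1) scale, which understates the change of low genes, with its SE from limma and an adjusted p (Benjamini-Hochberg over the 11194 genes that reached 1 TPM in 2 or more libraries). A gene was called at an adjusted p under 0.05. With 2 libraries a group an exact permutation test of 1 gene cannot go below p = 0.333, so the fit across all genes carries the tests.

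Nlrc5 was listed at 14.8 and 13.9 TPM in WT soft and at 8.97 and 9.16 TPM in WT soft+IL-4. In the KO it was listed at 15.6 and 14.7 TPM in soft and at 9.86 and 9.78 TPM in soft+IL-4. The 4 IL-4 libraries lay below the 4 soft libraries without overlap. Over both genotypes Nlrc5 fell by 0.60 in log2 units (SE 0.168, adjusted p = 0.0311). Tap1, the transporter chain that forms the TAP dimer with Tap2, was listed at 78.0 and 72.2 TPM in WT soft and 51.7 and 46.9 TPM in WT soft+IL-4. Its KO values were 68.8 and 69.4 TPM in soft and 56.8 and 58.8 TPM in soft+IL-4, again without overlap. Over both genotypes Tap1 fell by 0.43 (SE 0.0724, adjusted p = 0.00275). Its partner Tap2 went from 92.0 to 95.6 TPM over the 4 soft libraries to 80.2 to 88.0 TPM over the 4 IL-4 libraries, also without overlap, and the difference of -0.14 was not called (SE 0.103, adjusted p = 0.36).

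Psmb10, the immunoproteasome subunit that replaces Psmb7, was listed at 253 and 210 TPM in WT soft and at 375 and 364 TPM in WT soft+IL-4. The KO libraries gave 233 and 201 TPM in soft and 370 and 362 TPM in soft+IL-4. This was the largest difference among the members, 0.72 on the log2 scale (SE 0.229), and its adjusted p of 0.05 lay just above the threshold. Psmb8, which replaces Psmb5, ranged from 298 to 330 TPM in soft and from 343 to 383 TPM in soft+IL-4 (log2 fold change 0.21, SE 0.148, adjusted p = 0.346). Tapbp ranged from 449 to 477 TPM in soft and from 513 to 567 TPM in soft+IL-4 (0.22, SE 0.181, adjusted p = 0.439). Both had no overlap between the 4 soft and the 4 IL-4 libraries.

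The heavy and light chains and Psmb9 were not called. H2-D1 ranged from 8162 to 8642 TPM in soft and from 6821 to 7673 TPM with IL-4, without overlap, a difference of -0.23 (SE 0.0861, adjusted p = 0.0898). H2-K1 had differences of opposite sign in the 2 genotypes. It was listed at 3166 and 3283 TPM in WT soft against 3027 and 2888 TPM with IL-4. In the KO it was 3106 and 3094 TPM in soft against 3314 and 3152 TPM with IL-4. Neither genotype had overlap, which also held for 61.3% of all genes tested in WT and 60.4% in the KO. The interaction for H2-K1, the KO response minus the WT response, was 0.185 (SE 0.131, adjusted p = 1), so the genotypes were not shown to differ. B2m and Psmb9, the subunit that replaces Psmb6, overlapped between soft and soft+IL-4.

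Over both genotypes limma called 2 of the 10 members after IL-4, both lower, beside 22.9% of all genes tested; 5 were higher and 5 lower, and their median log2 fold change of -0.01 lay near 0. No overlap between the 4 soft and 4 IL-4 libraries was seen for 7 members and for 36.9% of all genes tested. In WT alone 1 member was called, Tap1 (fell by 0.60, SE 0.102, adjusted p = 0.00626), beside 10.7% of all genes. In the KO alone limma called 0, beside 10.3% of all genes, and 3 members had an unadjusted p under 0.05 (Tap1, Psmb10 and Nlrc5). These counts depended on the WT stiff libraries, which enter only the shared estimate of the spread. Without both of them, an alternative chosen after the data were seen, limma called 6 members over both genotypes, beside 34.8% of all genes. Tap1 (adjusted p = 0.00026), Nlrc5 (0.000365) and H2-D1 (0.00434) were then lower, and Psmb10 (0.000115), Tapbp (0.00222) and Psmb8 (0.00784) higher. The same fit called 4 members in WT (Tap1, Nlrc5 and H2-D1 lower, Psmb10 higher), beside 22.9% of all genes, and 5 in the KO (Tap1 and Nlrc5 lower, Tapbp, Psmb8 and Psmb10 higher), beside 22.2%. Without the libraries labelled WT soft 2, KO soft 1 and KO stiff 1, 0 members were called over both genotypes, beside 7.14% of all genes, with log2 fold changes of -0.46 for Tap1 (adjusted p = 0.0647) and -0.60 for Nlrc5 (adjusted p = 0.228).

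**Figure D2:**
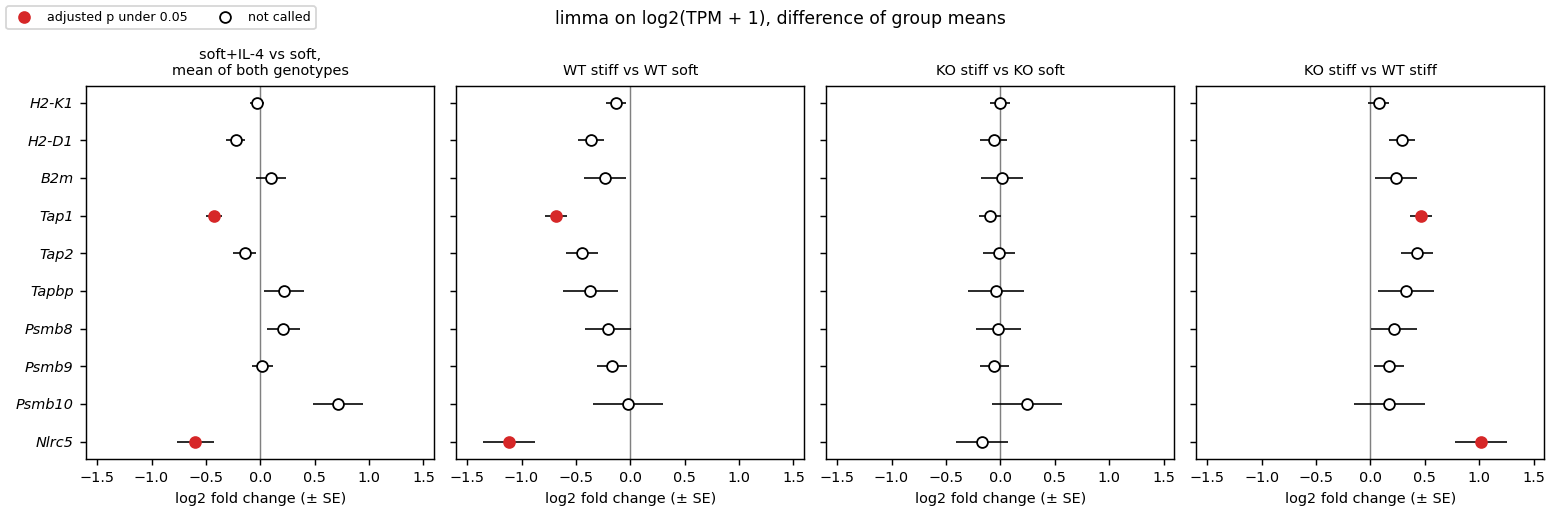
Log2 fold change of each gene with its SE (limma on log2(TPM + 1), linear axis in log2 units) in 4 comparisons; red points have an adjusted p under 0.05. Tap1 and Nlrc5 were called in the IL-4, WT stiff and KO against WT stiff comparisons, and no member was called between KO stiff and KO soft.

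Stiffening was the second question. In WT the 2 stiff libraries differed by up to 1.30 in a member (Psmb10), against at most 0.282 in the other groups. Against the mean of WT soft, the log2 differences of WT stiff 1 were negative for all 10 genes, from -0.18 (H2-K1) to -1.56 (Nlrc5). WT stiff 2 was lower for Nlrc5 (-0.67), Tap1 (-0.56), H2-D1 (-0.25), Tap2 (-0.21), H2-K1 and Psmb9, and higher for Psmb10 (0.63), Psmb8 (0.21), Tapbp (0.16) and B2m (0.11). The values of WT stiff 2 lay beside those of the WT soft+IL-4 libraries: Psmb10 was listed at 357 TPM against 375 and 364, Nlrc5 at 8.68 against 8.97 and 9.16, Tapbp at 517 against 513 and 523, and Tap1 at 50.8 against 51.7 and 46.9. WT stiff 1 held less of them all, with 144.5 TPM of Psmb10, 4.22 TPM of Nlrc5, 248 TPM of Tapbp and 42.5 TPM of Tap1.

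**Figure D3:**
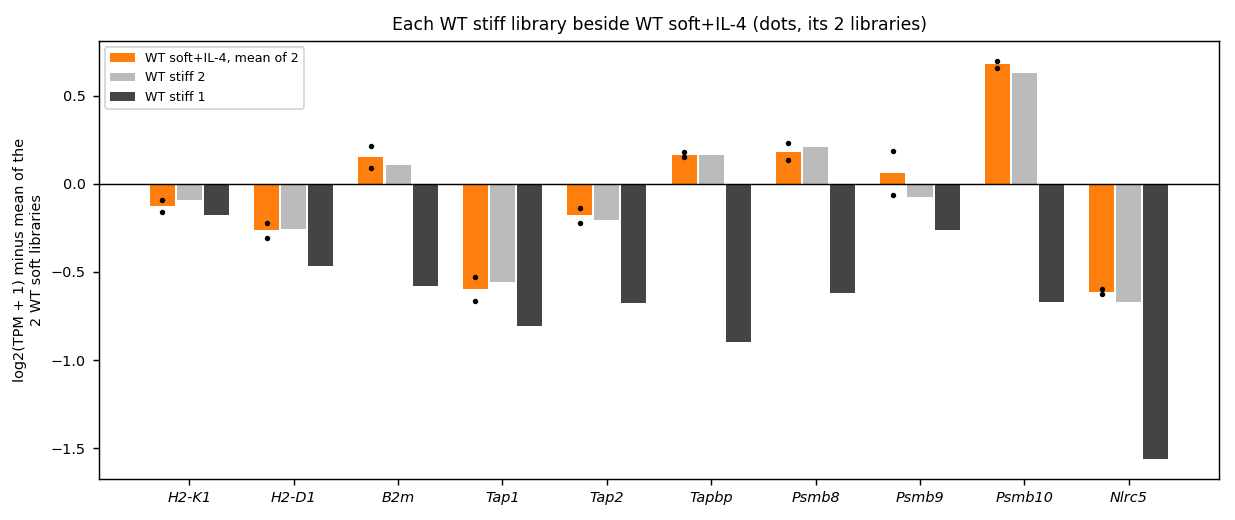
Difference in log2(TPM + 1) of each gene from the mean of the 2 WT soft libraries, for WT soft+IL-4 (orange, mean of its 2 libraries, which are shown as dots), WT stiff 2 (light grey) and WT stiff 1 (dark grey). WT stiff 2 follows the IL-4 bars in 9 of the 10 genes in sign, and WT stiff 1 is below 0 for every gene.

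Both libraries held less Tap1 and Nlrc5 than either WT soft library, and these were the 2 members that limma called in WT stiff against WT soft, beside 10.6% of all genes tested. Tap1 fell by 0.68 (SE 0.102, adjusted p = 0.00317) and Nlrc5 fell by 1.11 (SE 0.238, adjusted p = 0.017). H2-D1, at 6105 and 7083 TPM in WT stiff against 8282 and 8610 TPM in WT soft, and Tap2, at 58.4 and 81.1 TPM against 95.1 and 92.4 TPM, did not overlap either but were not called (adjusted p = 0.1 and 0.0937). With H2-K1 and Psmb9, 6 members lay lower without overlap, beside 42.8% of all genes tested that did not overlap in either direction. Without WT stiff 1 the calls were Tap1 and Nlrc5 lower and Psmb10 higher (0.63, adjusted p = 0.0139), beside 14.7% of all genes. Without WT stiff 2 they were 8 members, all lower, beside 27.4% of all genes, in a fit that assumes the single library left to vary like the other groups. Without the libraries labelled WT soft 2, KO soft 1 and KO stiff 1, 0 members were called, beside 1.35% of all genes, with Tap1 at -0.74 (adjusted p = 0.101) and Nlrc5 at -1.16 (adjusted p = 0.218).

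Between the libraries labelled KO stiff and KO soft no member was called. The Camkk2 level goes against the label in 1 of the 2 libraries of each group, so the comparison is one of labels. Limma called 0 between KO stiff and KO soft, beside 0.0447% of all genes tested (5 of 11194), and 0 had an unadjusted p under 0.05. Log2 fold changes ran from -0.17 for Nlrc5 to 0.25 for Psmb10. Nlrc5 was listed at 14.6 and 12.3 TPM in KO stiff against 15.6 and 14.7 TPM in KO soft, and Tap1 at 65.0 and 64.1 TPM against 68.8 and 69.4 TPM. Psmb10 was listed at 279 and 237 TPM against 233 and 201 TPM. These 3 genes and B2m (7114 and 7224 TPM against 7112 and 7098 TPM) did not overlap between KO stiff and KO soft, and 32.3% of all genes tested did not overlap in this comparison.

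Between the genotypes in the stiff gel, KO stiff held more of all 10 members than the mean of WT stiff. Limma called 2 of them, beside 4.93% of all genes tested: Tap1 was higher by 0.47 (SE 0.102, adjusted p = 0.0326) and Nlrc5 by 1.02 (SE 0.238, adjusted p = 0.042). Without WT stiff 1 the difference for Nlrc5 was 0.57 (adjusted p = 0.0363) and that for Tap1 0.34 (adjusted p = 0.0579), and B2m, Tapbp, Psmb8 and Psmb10 turned to lower in KO stiff. Without WT stiff 2, 8 members were called higher, beside 24.9% of all genes. Without KO stiff 1, whose Camkk2 level goes against its label, 0 were called, beside 1.39% of all genes, and Tap1 was at 0.46 (adjusted p = 0.188). The comparison shares its WT stiff libraries with WT stiff against WT soft, so the 2 sets of calls are not independent.

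No member was called between the genotype labels elsewhere. WT soft and KO soft each held 1 library with a low and 1 with a high Camkk2 level, so their comparison says little of the genotypes. Between KO soft and WT soft limma called 0 members and 0 of all genes tested (0%), with 0 members and 130 genes at an unadjusted p under 0.05. Between KO soft+IL-4 and WT soft+IL-4 it called 0 members and 0 genes (0%), with 0 members and 233 genes at an unadjusted p under 0.05; Tap1 was nearest, at 56.8 and 58.8 TPM in the KO against 51.7 and 46.9 TPM in WT (log2 fold change 0.23, SE 0.102, adjusted p = 1). The interaction of genotype with IL-4 called 0 members and 0 genes (0%), with Tap1 the 1 member, and 165 genes, at an unadjusted p under 0.05. For the interaction of genotype with stiffness 0 members were called, beside 0.974% of all genes; Tap1 (0.58, SE 0.145, adjusted p = 0.127) and Nlrc5 (0.95, SE 0.336, adjusted p = 0.311) were the 2 with an unadjusted p under 0.05. The responses of WT and KO to stiffening were thus not shown to differ. Without WT stiff 2 this interaction called 8 members, beside 15.9% of all genes, all on the single library WT stiff 1.

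Over both genotypes, stiff against soft called 1 member, Tap1 (fell by 0.39, SE 0.0724, adjusted p = 0.0134), beside 6.47% of all genes, and Nlrc5 was at -0.64 and not called (SE 0.168, adjusted p = 0.0553). Stiff against soft+IL-4 called 0 members, beside 1.01% of all genes, and 2 had an unadjusted p under 0.05: Tapbp (-0.42, SE 0.181, adjusted p = 0.292) and Psmb10 (-0.60, SE 0.229, adjusted p = 0.242). Psmb10 was lower in all 4 stiff than in all 4 IL-4 libraries, although WT stiff 2 lay only 4.69 TPM below the lowest of them, and 4.69% of all genes tested did not overlap.

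The constitutive partners of the immunoproteasome subunits were compared next. Psmb6, which carries the caspase-like activity and gives way to Psmb9, was listed at 232 to 268 TPM in the 4 soft and 348 to 378 TPM in the 4 IL-4 libraries, and it rose by 0.57 with IL-4 over both genotypes (SE 0.0762, adjusted p = 0.000707). Psmb5, the chymotrypsin-like subunit, ranged from 221 to 307 TPM in soft and from 322 to 334 TPM with IL-4 (log2 fold change 0.35, SE 0.143, adjusted p = 0.116). Psmb7, the trypsin-like subunit, ranged from 152 to 161.5 TPM and from 173.5 to 185 TPM (0.19, SE 0.061, adjusted p = 0.0515). None of the 3 overlapped between the soft and IL-4 libraries.

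The ratio of each immunoproteasome subunit to the constitutive one it replaces, both in TPM, went in different directions with IL-4. Psmb10 over Psmb7 was 1.57 and 1.32 in WT soft and 1.51 and 1.32 in KO soft, and with IL-4 it was 2.13 and 2.10 in WT and 2.05 and 1.96 in the KO. Psmb9 over Psmb6 went the other way, from 0.643 and 0.705 in WT soft and 0.763 and 0.697 in KO soft to 0.524 and 0.425 in WT soft+IL-4 and 0.496 and 0.462 in KO soft+IL-4. Psmb8 over Psmb5 ranged from 1.08 to 1.39 in soft and from 1.07 to 1.19 with IL-4, which overlap. The ratios at the 3 catalytic positions thus differed in direction. In WT stiff the first ratio was 0.909 and 1.94, the second 0.441 and 0.442, and the third 0.992 and 1.12; in KO stiff they were 1.86 and 1.5, 0.620 and 0.581, and 1.26 and 1.20. Psmb9 over Psmb6 was the ratio on which WT stiff 1 and WT stiff 2 lay together, at the level of the IL-4 libraries. These ratios were formed for description and were not tested.

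**Figure D4:**
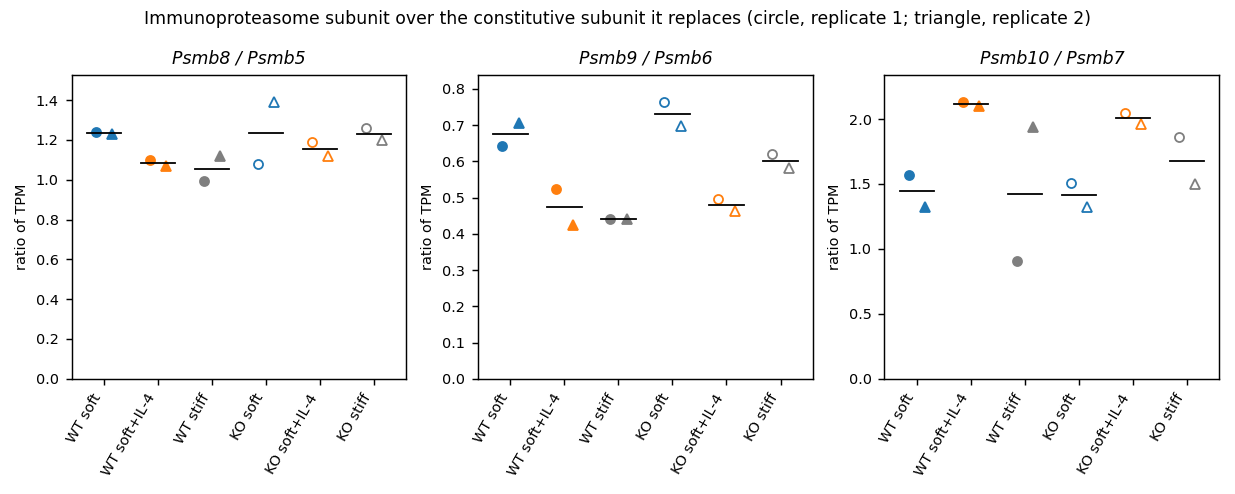
Ratio of the TPM of Psmb8 to Psmb5, Psmb9 to Psmb6 and Psmb10 to Psmb7 (linear axes from 0) in each library; filled symbols are WT and open symbols KO, circles are replicate 1 and triangles replicate 2, and lines are means of 2 libraries. With IL-4 the Psmb10 ratio was 1.96 to 2.13 against 1.32 to 1.57 in soft, and the Psmb9 ratio 0.425 to 0.524 against 0.643 to 0.763.

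The rest of the proteasome was read from lists, whose counts stand beside 22.9% of all genes called with IL-4 over both genotypes (1102 higher and 1465 lower) and a median of -0.05 over all genes. The share called was close to that in the 19S list, and no list was tested against the other genes. With IL-4 over both genotypes, 5 of the 11 other 20S core subunits were called, all higher, with a median log2 fold change of 0.23; Psmb4 (0.26, adjusted p = 0.00646), Psma4 (0.45, adjusted p = 0.00689) and Psma3 (0.42, adjusted p = 0.0117) led them. Of the 18 subunits of the 19S cap, which unfolds substrates, 5 were called higher (median 0.16), among them Psmc3 (0.31, adjusted p = 0.0241), Psmc4 (0.30, adjusted p = 0.0277) and Psmc6 (0.20, adjusted p = 0.036), and 0 lower. The assembly chaperone Psmg1 was called (0.37, adjusted p = 0.0347), 1 of 5 in its list. Of the 4 activators limma called 0 over both genotypes: the interferon-inducible Psme1 ranged from 332 to 390 TPM in soft and 374 to 426.5 TPM with IL-4 (log2 fold change 0.13, adjusted p = 0.602), and Psme2 from 366 to 448 TPM and 483 to 504 TPM (0.30, adjusted p = 0.4). In WT stiff against WT soft the 20S and 19S lists had 0 calls each, beside 10.6% of all genes, and Psmb6 was called (317.5 and 360 TPM in WT stiff, 0.44, adjusted p = 0.0318).

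The next list joined partners of the loading complex with peptide-cutting enzymes, and the 2 genes called lower in it were both such enzymes. Over both genotypes IL-4 raised Calr (calreticulin, 0.58, adjusted p = 0.0313), Pdia3 (the disulfide isomerase ERp57 bound to tapasin, 0.41, adjusted p = 0.00822) and Lap3 (a leucine aminopeptidase, 0.42, adjusted p = 0.00373). It lowered the cytosolic hydrolase Blmh (by 0.60, adjusted p = 0.00466) and Lnpep (an aminopeptidase of endosomes, by 0.51, adjusted p = 0.00777). This makes 3 higher and 2 lower of 10, beside 22.9% of all genes called. Of 12 other class I heavy chains tested, 4 were called, all lower, beside 22.9% of all genes, with a median of -0.19 over the list. Not all of them fell: 3 of the 12 were higher in WT and 5 in the KO, by up to 0.672 and 0.798. In both genotypes 0 were called higher. Cd1d1, which presents lipids, fell by 0.74 (adjusted p = 0.00231), H2-Q4 by 0.53 (adjusted p = 0.00932) and H2-M3, which presents formylated peptides, by 0.43 (adjusted p = 0.0153). Cd1d1 was also called lower in WT stiff against WT soft (4.41 and 3.48 TPM in WT stiff, a fall by 0.65, adjusted p = 0.0427), the 1 call of that list there.

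The interferon-linked genes stood beside Tap1 and Nlrc5, and their counts with IL-4 stand beside the same 22.9% of all genes called. Irf8 fell by 0.58 with IL-4 over both genotypes (adjusted p = 0.000113), Irf9, the DNA-binding subunit of the type I interferon response complex, by 0.43 (adjusted p = 0.00958) and Rela, an NF-kB subunit, by 0.29 (adjusted p = 0.00723). Irf1, in contrast, ranged from 136 to 140.1 TPM in soft and from 152 to 166 TPM with IL-4 (log2 fold change 0.22, adjusted p = 0.379). Of 17 antiviral interferon-stimulated genes 11 were called lower and 0 higher (median -1.25), led by Oas2 (-1.6, adjusted p = 0.000932), Ddx58 (-0.99, adjusted p = 0.00166) and Ifit2 (-1.73, adjusted p = 0.00263). Of 9 interferon-inducible GTPases 5 were called lower, led by Iigp1 (-1.25, adjusted p = 0.00106), Irgm2 (-0.96, adjusted p = 0.00161) and Gbp7 (-0.56, adjusted p = 0.0111). The list did not fall as a whole. Within each genotype 7 of the 9 were lower and 2 higher with IL-4, by up to 1.51 in WT and 0.664 in the KO. In both genotypes 0 were called higher. Jak2, a kinase of the interferon gamma receptor, rose by 0.81 (adjusted p = 7.09e-05). None of the 6 interferon genes of a further list was found by symbol among the 14098 genes, so no values can be given for them.

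In WT stiff against WT soft 12 of 17 antiviral genes were called lower (median -2.25, with Oas2 at -2.21, adjusted p = 0.00245), beside 10.6% of all genes called. Irf9 (-0.67, adjusted p = 0.0117) and Irf8 (-0.67, adjusted p = 0.000844) were called lower too. All 17 antiviral genes were lower in WT stiff 1 than in WT stiff 2, with Oas2 at 4.90 and 13.4 TPM, and Irf9 was at 27.0 and 36.0 TPM, while Irf8 was at 111 and 107 TPM. Isg15 was listed at 7.88 TPM in WT stiff 1 and 113 TPM in WT stiff 2, and Irf1 at 81.9 and 160 TPM. In KO stiff Isg15 was listed at 173 and 144 TPM, and KO stiff against WT stiff called 11 of the 17 antiviral genes and Irf8 (0.55, adjusted p = 0.0052) higher, beside 4.93% of all genes called. In WT stiff 1 Nlrc5 was at 28.4% and H2-K1 at 90.1% of the level in WT soft 1.

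Across the 12 libraries, 43 of the 45 pairs of members had a positive Pearson r on the log2 scale, and without WT stiff 1 only 24 did. Without it, the members that had no overlap between the soft and IL-4 libraries parted along the lines seen with IL-4. Tap1, Tap2, Nlrc5 and H2-D1 had pairwise r of 0.794 to 0.933, Tapbp, Psmb8 and Psmb10 had 0.866 to 0.923, and r between the 2 sets ran from -0.892 to -0.508. H2-K1, B2m and Psmb9 were placed in neither set. The sets were formed after the values were seen, the points share the IL-4 contrast and the scaling of each library, and no test was made. With all 12 libraries the genes whose pattern was most like the mean of the 10 standardised members were Efhd2 (r = 0.981), the tapasin-related Tapbpl (0.980), Uap1l1 (0.978), Pgd (0.977) and Fermt3 (0.971). All 5 had their lowest value in WT stiff 1, and without that library the same genes had r of 0.633 to 0.754 over 11 libraries.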

How the data were processed

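The authors deposited 1 table of TPM values for 12 libraries. The submitters' processing notes name Trim Galore 0.6.7, Salmon 1.4.0 and mm10, while the methods describe STAR, featureCounts and DESeq, so how the deposited TPM were made is not settled, and the annotation is not given in the sources used here. Groups came from the sample labels, and 0 columns were left unused. The 11194 genes that reached 1 TPM in 2 or more libraries were tested on log2(TPM + 1) with limma 3.58.1 (R 4.3.3): all 12 libraries in 1 model with a mean per group, eBayes with a trend, and Benjamini-Hochberg adjustment within each comparison. No count model was fitted to TPM. The code was tested on simulated data. The 10 genes, the other lists and the library doubts were chosen with earlier results of these data known. Named are all members in every comparison they are described in, up to 3 called genes per direction from each other list by smallest adjusted p, Psmb5, Psmb6, Psmb7, Psme1, Psme2, Irf1 and Irf9, and the 5 genes most like the members. 1 gene that this rule names and 1 motif searched are not reported here. Isg15 and Ifi44 were chosen after their values were seen. Alternatives were a pseudocount of 0.1, no filter, median-of-ratios scaling, only the groups compared, the replicate number as a block, a size limit of 1 on the log2 scale added to the threshold, groups without genotype, and libraries left out. Promoter windows came from RefSeq and positions from GENCODE vM21, both on GRCm38. Reads of overlapping genes (Psmb9 and Tap1) can be told apart only if strand was used in counting.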

Additional observations from a re-analysis of the deposited data

How the results depend on the processing

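The number of members called, and that of all genes, depended on the libraries that set the spread. Leaving out 1 library of the groups compared at a time gave 0 to 1 members in WT soft+IL-4 against WT soft, 1 to 1 over both genotypes with IL-4, 1 to 8 in WT stiff against WT soft, 0 to 8 in KO stiff against WT stiff, 0 to 7 in stiff against soft and 0 to 4 in stiff against soft+IL-4 over both genotypes, and 0 to 8 in the interaction of genotype with stiffness; in the comparisons that use the WT stiff group the highest counts came without WT stiff 2. With only the libraries of the groups compared, limma called 4 members in WT and 3 in the KO with IL-4 and 7 over both, beside 17.1%, 16.2% and 33.6% of all genes. It called 0 in WT stiff against WT soft and in KO stiff against WT stiff, where 0 of all 11194 genes were called, so these counts say nothing of the members. In stiff against soft over both genotypes it called 0, beside 2.49% of all genes. Without both WT stiff libraries, the IL-4 comparisons called 4, 5 and 6, beside 22.9%, 22.2% and 34.8% of all genes. Leaving out WT soft 2, KO soft 1 and KO stiff 1 leaves a single library in WT soft, KO soft and KO stiff. No call of a member was kept then in the 5 comparisons that had calls. The share of all genes called fell in each of these comparisons too, so the loss of calls was not particular to the members. Adding a size limit of 1 on the log2 scale left 1 call (Nlrc5) in WT stiff against WT soft and 1 in KO stiff against WT stiff, beside 3.97% and 1.98% of all genes. It left 0 in WT with IL-4, in IL-4 over both genotypes and in stiff against soft, beside 3.76%, 4.35% and 1.35% of all genes. No filter left 1 in KO stiff against WT stiff and 1 with IL-4 over both genotypes, beside 3.34% and 17.2% of all genes. Median-of-ratios scaling left 0 and 1, beside 4.61% and 23.1% of all genes. Dropping genotype left 0 in stiff against soft, beside 0.179% of all genes. The replicate block left 1 call in KO stiff against WT stiff (Nlrc5 lost, adjusted p = 0.0558) and changed no other count by over 1.5 times. The replicate numbers were not taken to pair the libraries, since not every pair of groups had a correlation over 0.1: differences between replicates correlated at -0.0526 to 0.314 over 15 pairs of groups, over 0.1 in 3. The libraries did split by number in another measure, with 10.7% to 13.4% of genes at 0 in those numbered 1 and 5.9% to 7.54% in those numbered 2, and WT soft 1 and 2 were closest to KO soft 1 and 2. Apart from what the construction of an alternative shows, the cause was not tested.

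Directions turned as follows. With 1 library left out at a time, WT stiff against WT soft ran from -0.58 to 0.11 for B2m, -0.90 to 0.16 for Tapbp, -0.62 to 0.21 for Psmb8 and -0.67 to 0.63 for Psmb10. KO stiff against WT stiff ran from -0.11 to 0.58 for B2m, -0.20 to 0.86 for Tapbp, -0.20 to 0.63 for Psmb8 and -0.48 to 0.82 for Psmb10. Stiff against soft over both genotypes ran from -0.28 to 0.061 for B2m, -0.47 to 0.060 for Tapbp, -0.32 to 0.095 for Psmb8 and -0.21 to 0.44 for Psmb10. In each, one end came without WT stiff 1 and the other without WT stiff 2. Values near 0 with IL-4 turned too: Psmb9 ran from -0.062 to 0.19 in WT, -0.14 to 0.084 in the KO and -0.046 to 0.078 over both genotypes, and B2m from -0.0025 to 0.088 in the KO. In the KO Psmb9 was at 0.027 under median-of-ratios scaling and at 0.084 without WT soft 2, KO soft 1 and KO stiff 1. H2-K1 over both genotypes was at 0.022 under median-of-ratios scaling. Tap1 with IL-4 over both genotypes was called in 15 of the 16 alternatives that kept the threshold, and Nlrc5 in 4 of 16.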
